A study of Mus musculus with 7 samples.

Results

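Genes of the liver sinusoidal endothelium and of leukocyte adhesion were measured by bulk RNA sequencing in the livers of control and lipopolysaccharide (LPS)-treated mice. The module was a list of 44 gene symbols, and each of them matched 1 of the 56691 genes in the count table. It was divided by role into 10 sinusoidal genes, most of them for uptake receptors or other surface proteins, 6 angiocrine ligands and transcription factors, 22 pan-endothelial and angiogenic genes, and 6 adhesion molecules. Of the 44 members, 40 had enough counts to be tested, among 13683 genes tested in all.

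The study examined septic acute liver injury induced by LPS, a component of the outer membrane of Gram-negative bacteria. Whole liver was sequenced from 4 control mice and 3 LPS mice, while the study kept 6 mice per group. All were male mice of the inbred strain C57BL/6J with no genetic modification named, 8 weeks old when purchased and then housed for 2 weeks. The LPS mice were killed 24 h after an intraperitoneal dose of 10 mg/kg, and the sources used here do not say what the control mice received. The study also had a group given sulforaphane before LPS, which has no library among the samples used here. Total counts were 14991022, 15096573, 15721944 and 18584140 in control replicates 1 to 4, and 20500391, 17095607 and 17821331 in LPS replicates 1 to 3. Expression is given as CPM, a gene's count scaled to the library size of the tested genes after TMM normalization. In these libraries 3 counts corresponded to between 0.138 and 0.212 CPM, a floor that reflects counting error alone, as PCR copies of a molecule could not be recognised.

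Sinusoidal endothelial cells line the hepatic capillaries, are perforated by fenestrae, and clear hyaluronan, immune complexes and other macromolecules from blood through scavenger and lectin receptors. They also send Wnt, R-spondin and BMP signals to the neighbouring hepatocytes, which set metabolic zonation and hepcidin production. Endothelium exposed to bacterial products or cytokines is known to display selectins. It also displays adhesion molecules of the immunoglobulin type, and the integrins of circulating leukocytes bind to these immunoglobulin-type molecules.

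Endothelial transcripts were present in every library. Pecam1, Cdh5, Tie1, Kdr, Stab2 and Lyve1 each had at least 59 counts in every mouse, and Clec4g had at least 312 counts in the control mice, but 28, 5 and 30 counts in LPS replicates 1 to 3. In these whole-liver samples, fewer cells of a type and less RNA per cell cannot be told apart.

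LPS replicate 1 stood apart from the other LPS mice. It had the highest CPM of the LPS mice for 36 of the 40 members tested (90%), while the same was true of 4951 of all 13683 genes tested (36.2%). By role, it was highest for 21 of 21 pan-endothelial genes, 4 of 4 adhesion molecules, 8 of 10 sinusoidal genes and 3 of 5 angiocrine genes. The summed level of 13 Kupffer cell and macrophage markers, all of which had counts in both groups and of which Marco was the most abundant, was 153, 212, 194 and 133 CPM in control replicates 1 to 4 and 745, 170.3 and 173 CPM in LPS replicates 1 to 3. LPS replicate 1 was above every other mouse, while LPS replicates 2 and 3 lay within the range of the controls. Of these markers 6 rose, 1 fell and 6 did not pass at an adjusted p below 0.05 in edgeR. Without LPS replicate 1 the numbers were 4, 4 and 5. Of all genes tested, 13.3% rose and 13% fell. The marker that fell was Clec4f, which marks resident Kupffer cells. Vsig4, Timd4 and Cd5l, which these cells also express, fell beside it without LPS replicate 1. The part of these markers in the results of the module was not tested. LPS replicates 2 and 3 were in turn unusually alike. Their log2 ratio had an SD of 0.119 across the 2382 genes with more than 500 counts in every sample, whereas the other 8 pairs within a group gave SDs from 0.249 to 0.498. The variance of this ratio was 4.46 times what counting noise alone gives, and between 22.5 and 75.7 times in the other pairs. That they are separate mice rests on their labels, and they were kept as 2 samples. With both summed into 1 sample, 6 members rose and 4 fell.

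In LPS mice the adhesion molecules Icam1 and Vcam1 and the surface receptors Ly6a, Cd93, Lyve1 and Pecam1 rose, while the sinusoidal genes Clec4g and Ehd3, the ligands Bmp2 and Vegfa and the receptor Kdr fell. For Kdr this held in only 3 of the 7 fits that each left out 1 mouse. LPS and control mice were compared gene by gene with the quasi-likelihood test of edgeR. P-values were adjusted by the Benjamini-Hochberg method over all 13683 genes tested, and a gene was said to rise or fall at an adjusted p below 0.05. Of the 40 members tested, 6 rose, 5 fell and 29 did not pass, so that 27.5% were called. Over all genes tested 26.3% were called, 13.3% higher and 13% lower, so the share among the members was near that of the genes in general. With an absolute log2 fold change above 1 asked for as well, 6 members rose and 3 fell, and 15.1% of all genes were called, 7.81% higher and 7.31% lower. The median log2 fold change of the members was 0.047, against -0.014 for all genes tested, with 21 members above 0 and 19 below. With total counts in place of TMM scaling it was -0.043. The median was also below 0 without control replicate 1 (-0.023), 3 (-0.087) or 4 (-0.031). Without LPS replicate 1, 6 members rose, 7 fell, and the median was -0.32 with 13 members above 0. In CPM, the groups did not overlap for 14 members, 6 of them higher and 8 lower in every LPS mouse, which is 35.0% against 35.4% over all genes tested (18.1% higher and 17.4% lower).

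**Figure D1:**
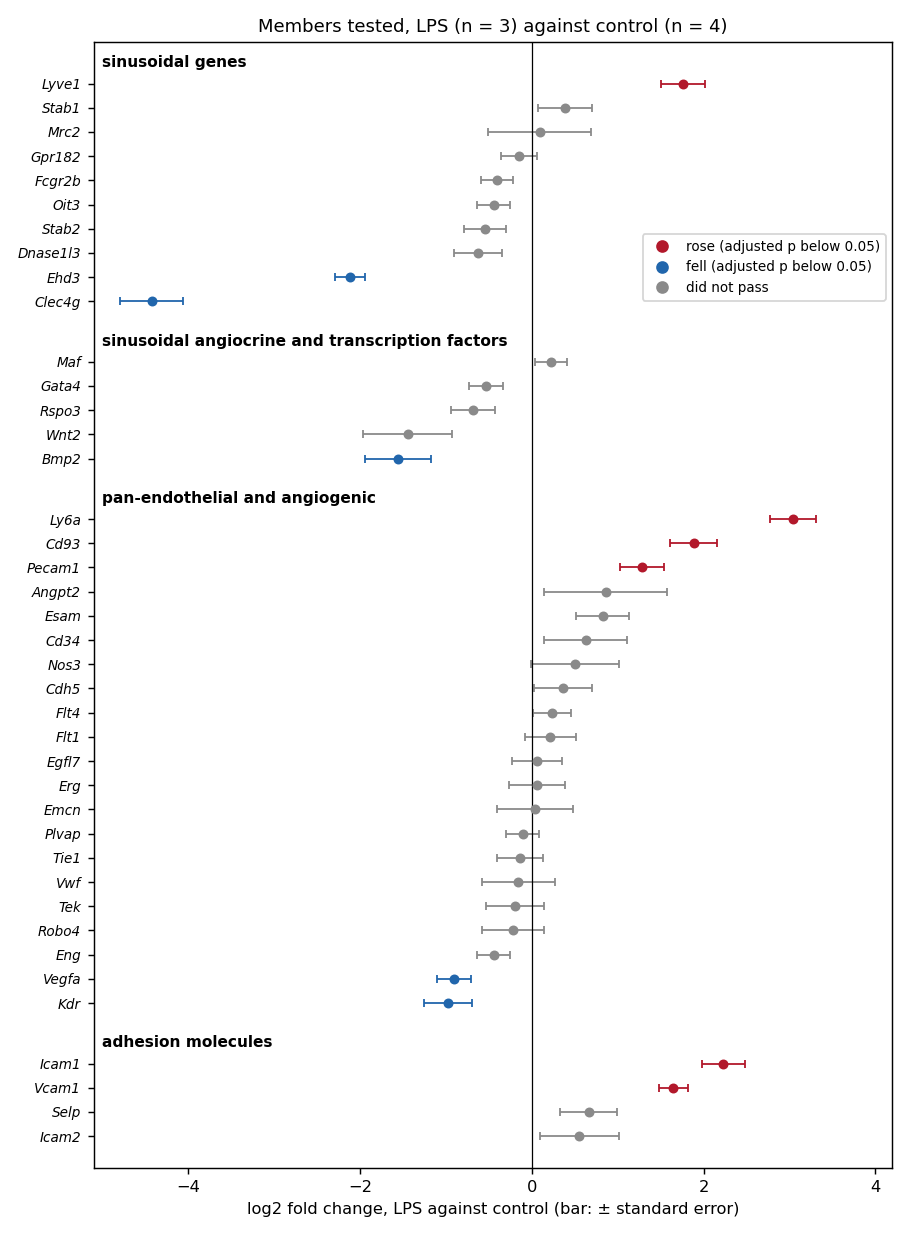
Log2 fold change of LPS (n = 3) against control (n = 4) mice for the 40 members tested, ordered by role, with bars of ± 1 standard error and colours for the members that rose, fell or did not pass at an adjusted p below 0.05. Values run from -4.43 for Clec4g to 3.04 for Ly6a; with total counts in place of TMM scaling, the points of Mrc2, Erg, Egfl7 and Emcn, which lie close to 0, turned from above to below it.

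Among the 10 sinusoidal genes, Clec4g and Ehd3 fell, Lyve1 rose and 7 did not pass, with a median log2 fold change of -0.42. The share called over all genes tested was 26.3%. Clec4g (ENSMUSG00000074491) encodes a C-type lectin of sinusoidal endothelium that binds glycans. It had 312, 497, 376 and 518 counts in control replicates 1 to 4 and 28, 5 and 30 counts in LPS replicates 1 to 3, which is 22.1, 31.4, 23.0 and 25.1 CPM in the control mice and 1.29, 0.322 and 1.87 CPM in the LPS mice. Every LPS mouse lay far below every control mouse, and LPS replicate 2 was the lowest. The mean was 25.4 ± 4.19 CPM (SD, n = 4) in control mice and 1.16 ± 0.781 CPM (SD, n = 3) in LPS mice, and the log2 fold change was -4.43 (SE 0.37, edgeR adjusted p = 2.23e-06). Ehd3 (ENSMUSG00000024065) encodes a protein of endosomal recycling that is enriched in this endothelium. It had 498, 556, 444 and 567 counts in control replicates 1 to 4 and 176, 105 and 106 counts in LPS replicates 1 to 3, or 35.2, 35.1, 27.1 and 27.4 CPM in the control mice and 8.11, 6.76 and 6.60 CPM in the LPS mice. Values of the LPS mice were close to each other and below all control mice. With means of 31.2 ± 4.55 CPM (SD, n = 4) in control mice and 7.16 ± 0.830 CPM (SD, n = 3) in LPS mice, the log2 fold change was -2.12 (SE 0.18, edgeR adjusted p = 2.43e-06).

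Lyve1 (ENSMUSG00000030787), a hyaluronan receptor of sinusoidal and lymphatic endothelium that some macrophages also carry, went the other way. It had 71, 76, 80 and 160 counts in control replicates 1 to 4 and 590, 227 and 247 counts in LPS replicates 1 to 3, or 5.02, 4.80, 4.89 and 7.74 CPM in the control mice and 27.2, 14.6 and 15.4 CPM in the LPS mice. All LPS mice were above all control mice, LPS replicate 1 was the highest, and control replicate 4 was above the other controls. The mean was 5.61 ± 1.42 CPM (SD, n = 4) in control mice and 19.1 ± 7.05 CPM (SD, n = 3) in LPS mice, a log2 fold change of 1.76 (SE 0.26, edgeR adjusted p = 2.96e-04), and it was 1.41 (edgeR adjusted p = 0.00154) without LPS replicate 1. The macrophage markers, which were also highest in LPS replicate 1, are the values given above, and their part in the rise of Lyve1 was not tested. Fcgr2b (ENSMUSG00000026656), the inhibitory Fc receptor that removes immune complexes, had 419, 524, 389 and 485 counts in control replicates 1 to 4 and 552, 290 and 289 counts in LPS replicates 1 to 3, or 29.6, 33.1, 23.8 and 23.5 CPM in the control mice and 25.4, 18.7 and 18.0 CPM in the LPS mice. LPS replicates 2 and 3 were below all control mice, but LPS replicate 1 lay within their range. The log2 fold change was -0.41 (SE 0.18, edgeR adjusted p = 0.124) and did not pass. Dnase1l3 (ENSMUSG00000025279), which encodes a secreted nuclease that degrades chromatin, had 291, 653, 349 and 531 counts in control replicates 1 to 4 and 553, 206 and 226 counts in LPS replicates 1 to 3, or 20.6, 41.2, 21.3 and 25.7 CPM in the control mice and 25.5, 13.3 and 14.1 CPM in the LPS mice. Its groups overlapped through LPS replicate 1 alone, and the log2 fold change was -0.62 (SE 0.28, edgeR adjusted p = 0.124). It was -0.99 (edgeR adjusted p = 0.0238) without that mouse and -0.36 without control replicate 2, and the adjusted p ranged over 0.0238 to 0.369 with each mouse left out.

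The remaining sinusoidal genes did not pass the test. The scavenger receptor Stab2, which takes up hyaluronan, had 16.2 to 32.1 CPM in control mice and 14.3 to 22.9 CPM in LPS mice, a log2 fold change of -0.54 (edgeR adjusted p = 0.122). Its relative Stab1 had 8.31 to 22.9 CPM in control mice and 17.2 to 26.7 CPM in LPS mice, a log2 fold change of 0.39 (edgeR adjusted p = 0.398), which was 0.17 without control replicate 3, 0.24 without control replicate 4, 0.60 without control replicate 2 and 0.18 without LPS replicate 1. Oit3 and the atypical chemokine receptor Gpr182 had log2 fold changes of -0.44 and -0.15, with edgeR adjusted p = 0.109 and 0.646. That of Gpr182 was -0.34 without LPS replicate 1 and -0.0071 without LPS replicate 2. The collagen receptor Mrc2 was low, at 0.550 to 1.33 CPM in control mice and 0.436 to 1.48 CPM in LPS mice, with a log2 fold change of 0.093 (edgeR adjusted p = 0.933) that was below 0 with total counts in place of TMM scaling. For Stab2 the adjusted p ranged over 0.0237 to 0.351 with each mouse left out. It was 0.0427 without LPS replicate 1 and 0.0237 without control replicate 3, with log2 fold changes of -0.80 and -0.71. Leaving out LPS replicate 1 therefore raised the number of sinusoidal genes that fell from 2 to 4, with Stab2 and Dnase1l3 beside Clec4g and Ehd3. The summed level of the 10 sinusoidal genes was 189, 232, 148 and 173 CPM in control replicates 1 to 4 and 164, 106 and 108 CPM in LPS replicates 1 to 3.

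**Figure D2:**
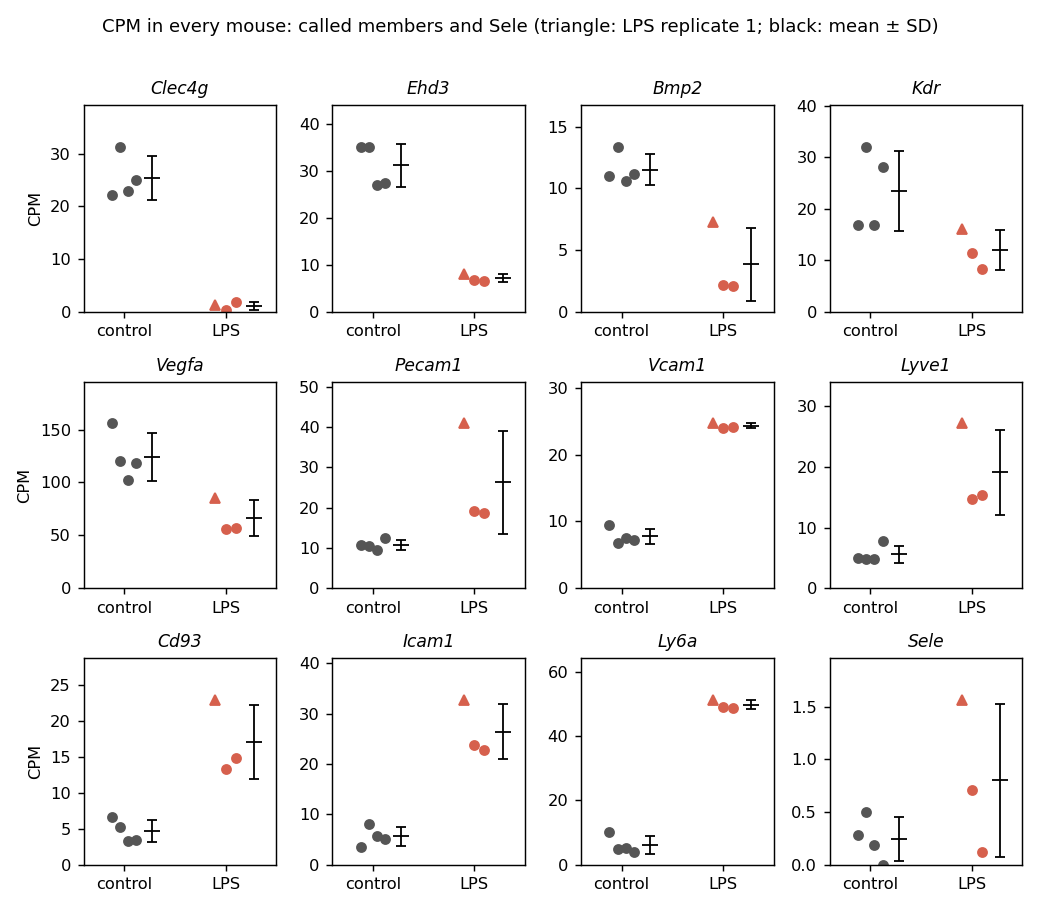
CPM in every mouse for the 11 members that rose or fell and for Sele, which was not tested; triangles mark LPS replicate 1, circles the other mice, and black bars the mean ± SD of 4 control or 3 LPS mice. The groups do not overlap for the 11 called members, LPS replicate 1 is the highest LPS mouse for each of these except Clec4g, and Sele overlaps.

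Of the 6 angiocrine ligands and transcription factors, 5 were tested, 1 fell and 4 did not pass, with a median log2 fold change of -0.68. The share called over all genes tested was 26.3%. Bmp2 (ENSMUSG00000027358), an endothelial ligand that drives hepcidin production in hepatocytes, had 155, 212, 173 and 230 counts in control replicates 1 to 4 and 157, 34 and 33 counts in LPS replicates 1 to 3, or 10.97, 13.4, 10.6 and 11.1 CPM in the control mice and 7.24, 2.19 and 2.05 CPM in the LPS mice. Each LPS mouse was below the control mice, but LPS replicate 1 was more than 3 times as high as LPS replicates 2 and 3. With means of 11.5 ± 1.27 CPM (SD, n = 4) in control mice and 3.83 ± 2.95 CPM (SD, n = 3) in LPS mice, the log2 fold change was -1.56 (SE 0.38, edgeR adjusted p = 0.00939). Without LPS replicate 1 it was -2.43 (edgeR adjusted p = 4.20e-05), the adjusted p ranged over 4.20e-05 to 0.0435 with each mouse left out, and with LPS replicates 2 and 3 summed the adjusted p was 0.0416. Maf (ENSMUSG00000055435), a transcription factor of sinusoidal endothelium and of macrophages, had 323, 344, 266 and 416 counts in control replicates 1 to 4 and 650, 320 and 323 counts in LPS replicates 1 to 3, or 22.9, 21.7, 16.3 and 20.1 CPM in the control mice and 30.0, 20.6 and 20.1 CPM in the LPS mice. LPS replicate 1 alone exceeded the control range, and the log2 fold change was 0.22 (SE 0.18, edgeR adjusted p = 0.416). It was 0.013 without LPS replicate 1 and 0.13 without control replicate 3. Gata4 (ENSMUSG00000021944), a transcription factor that maintains the sinusoidal type of endothelium, had 183, 204, 269 and 242 counts in control replicates 1 to 4 and 170, 141 and 178 counts in LPS replicates 1 to 3, or 12.9, 12.9, 16.4 and 11.7 CPM in the control mice and 7.83, 9.08 and 11.1 CPM in the LPS mice. Every LPS mouse was below every control mouse, yet the log2 fold change of -0.53 (SE 0.20, edgeR adjusted p = 0.0632) did not pass. With total counts in place of TMM scaling Gata4 passed, at -0.66 (edgeR adjusted p = 0.0307).

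The Wnt signals of the central vein and sinusoids did not pass or were not tested. Wnt2 had 1.02 to 2.97 CPM in control mice and 0.580 to 0.809 CPM in LPS mice, a log2 fold change of -1.45 (SE 0.52, edgeR adjusted p = 0.0592), and its adjusted p ranged over 0.0374 to 0.175 with each mouse left out. It passed without control replicate 4, at -1.66 (edgeR adjusted p = 0.0374), which raised the number of angiocrine genes that fell to 2. Wnt2 also passed with DESeq2 (adjusted p = 0.0483) and with total counts in place of TMM scaling (edgeR adjusted p = 0.0473). Rspo3, which amplifies Wnt signalling in hepatocytes around the central vein, had 5.50 to 7.36 CPM in control mice and 3.16 to 4.29 CPM in LPS mice, a log2 fold change of -0.68 (SE 0.25, edgeR adjusted p = 0.0659). The groups of Wnt2 and Rspo3 did not overlap, although neither passed. Wnt9b had 3, 2, 0 and 20 counts in control replicates 1 to 4 and 25, 7 and 3 counts in LPS replicates 1 to 3, overlapped between groups and was not tested.

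Genes of hepatocytes that respond to these signals were examined beside them. Of 15 pericentral Wnt targets tested, 0 rose, 8 fell and 7 did not pass, and the median log2 fold change was -1.35. Of all genes tested, 13% fell. The smallest p-values among them belonged to Glul, Cyp1a2 and Notum. Glul, the glutamine synthetase of pericentral hepatocytes, had 808, 1047, 916 and 956 CPM in the control mice and 139, 111 and 111 CPM in the LPS mice, a log2 fold change of -2.95 (SE 0.17, edgeR adjusted p = 1.27e-07). Cyp1a2, a pericentral cytochrome P450, had 909, 778, 774 and 683 CPM in the control mice and 31.8, 13.4 and 15.6 CPM in the LPS mice, a log2 fold change of -5.27 (SE 0.31, edgeR adjusted p = 1.42e-07). Notum, which encodes a secreted enzyme that inactivates Wnt ligands, had 22.4, 20.1, 21.4 and 23.8 CPM in the control mice and 4.65, 3.29 and 3.49 CPM in the LPS mice, a log2 fold change of -2.52 (SE 0.19, edgeR adjusted p = 1.09e-06). For all 3 genes every LPS mouse was below every control mouse, and the Wnt target Axin2 fell as well, by 1.63 on the log2 scale (edgeR adjusted p = 0.00100). Of 14 BMP targets and receptors tested, 0 rose, 3 fell and 11 did not pass, with a median log2 fold change of -0.39. Hamp, which encodes hepcidin and was the most abundant of them, had 615, 816, 489 and 521 CPM in the control mice and 458, 581 and 589 CPM in the LPS mice. The groups overlapped, and the log2 fold change of -0.17 (SE 0.19, edgeR adjusted p = 0.572) did not pass, in any fit that left out 1 mouse either. The summed level of the 14 genes was 1232, 1484, 1204 and 1131 CPM in control replicates 1 to 4 and 1019, 1213 and 1243 CPM in LPS replicates 1 to 3, also with overlap. Smad9, a receptor-regulated transducer of BMP signals, had 10.2, 12.2, 18.5 and 11.5 CPM in the control mice and 3.09, 2.96 and 1.31 CPM in the LPS mice, a log2 fold change of -2.40 (SE 0.32, edgeR adjusted p = 1.42e-04). Smad7, an inhibitor of the pathway, went from 9.77 to 5.03 CPM in the mean, a log2 fold change of -0.96 (edgeR adjusted p = 0.0178), and lost the call without control replicate 4 or LPS replicate 2 (edgeR adjusted p = 0.0572 and 0.0840). The BMP-induced regulator Id3 had 51.6, 51.9, 68.6 and 19.3 CPM in the control mice and 23.5, 24.7 and 24.3 CPM in the LPS mice. Control replicate 4 lay below all LPS mice, so the groups overlapped, and the log2 fold change was -0.98 (edgeR adjusted p = 0.0348). Its adjusted p was above 0.05 in every fit that left out 1 mouse except that without control replicate 4, with a highest value of 0.101 without LPS replicate 3. Without LPS replicate 2, and also with LPS replicates 2 and 3 summed, Smad9 was the 1 BMP gene that fell. Hepatocyte markers moved as well. The summed level of 10 such markers, all of them with counts and with Alb the most abundant, was 68878, 67333, 94200.2 and 81637 CPM in control replicates 1 to 4 and 48349, 54021 and 53911 CPM in LPS replicates 1 to 3. The sum was lower in every LPS mouse than in every control mouse, but 6 of the 10 markers had log2 fold changes above 0. Their median was 0.069, with a range of -0.021 to 0.21 with each mouse left out and -0.072 with total counts in place of TMM scaling. Of the markers 2 rose, 4 fell and 4 did not pass, while 13.3% of all genes tested rose and 13% fell. Of the 10 markers, 3 rose and 2 fell without LPS replicate 1, and 1 rose and 1 fell without LPS replicate 2 or without LPS replicate 3. Their part in the falls of the Wnt and BMP targets was not tested.

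Of the 22 pan-endothelial and angiogenic genes, 21 were tested, 3 rose, 2 fell and 16 did not pass, while 26.3% of all genes tested were called. The 21 genes had a median log2 fold change of 0.062, with 13 of them above 0. Without LPS replicate 1 it was -0.30 with 6 genes above 0, so that the sign of the median rested on that mouse. It was also below 0, at -0.025, with total counts in place of TMM scaling. Ly6a (ENSMUSG00000075602) encodes a glycolipid-anchored surface protein of endothelial, progenitor and lymphoid cells and is known to respond to interferon. It had 146, 79, 86 and 79 counts in control replicates 1 to 4 and 1113, 761 and 784 counts in LPS replicates 1 to 3, or 10.3, 4.99, 5.26 and 3.82 CPM in the control mice and 51.3, 49.0 and 48.8 CPM in the LPS mice. Values in the LPS mice were nearly equal and all above the control mice, among which control replicate 1 was the highest. The mean was 6.10 ± 2.89 CPM (SD, n = 4) in control mice and 49.7 ± 1.38 CPM (SD, n = 3) in LPS mice, and the log2 fold change was 3.04 (SE 0.27, edgeR adjusted p = 3.69e-06). Ly6a belongs to a family of similar genes, and how reads shared within it were counted is not given in the sources used here, so the split within the family is uncertain. Cd93 (ENSMUSG00000027435), a lectin-like membrane protein of endothelial and myeloid cells, had 93, 83, 55 and 71 counts in control replicates 1 to 4 and 498, 207 and 239 counts in LPS replicates 1 to 3, or 6.58, 5.24, 3.36 and 3.44 CPM in the control mice and 23.0, 13.3 and 14.9 CPM in the LPS mice. All LPS mice were above the control mice, with LPS replicate 1 the highest. With means of 4.65 ± 1.55 CPM (SD, n = 4) in control mice and 17.1 ± 5.16 CPM (SD, n = 3) in LPS mice, the log2 fold change was 1.88 (SE 0.28, edgeR adjusted p = 2.78e-04).

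Pecam1 (ENSMUSG00000020717), a junctional molecule of endothelium that platelets and leukocytes also carry, had 152, 168, 156 and 259 counts in control replicates 1 to 4 and 890, 298 and 301 counts in LPS replicates 1 to 3, or 10.8, 10.6, 9.53 and 12.5 CPM in the control mice and 41.0, 19.2 and 18.7 CPM in the LPS mice. LPS replicates 2 and 3 were nearly equal, both above all control mice, and LPS replicate 1 was more than 2 times as high as they were. The mean was 10.9 ± 1.24 CPM (SD, n = 4) in control mice and 26.3 ± 12.7 CPM (SD, n = 3) in LPS mice, a log2 fold change of 1.28 (SE 0.26, edgeR adjusted p = 0.00269), and 0.81 (edgeR adjusted p = 0.00870) without LPS replicate 1. The summed level of 11 platelet and megakaryocyte markers, with Itgb3 the most abundant, was 8.14, 6.69, 6.17 and 4.89 CPM in control replicates 1 to 4 and 25.8, 16.7 and 16.7 CPM in LPS replicates 1 to 3. Of these, 4 were tested and 1 rose, Itgb3, which other cells also express, while the platelet genes Pf4, Ppbp and Itga2b did not pass, with log2 fold changes of 0.65, -0.82 and -0.55. Of the 11 markers 2 had 0 counts in all mice, Gp1bb among them. The part of the platelet and macrophage markers in the rises of Pecam1 and Cd93 was not tested.

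Vegfa (ENSMUSG00000023951), the growth factor that keeps sinusoidal endothelium fenestrated and that hepatocytes make, had 2207, 1910, 1670 and 2439 counts in control replicates 1 to 4 and 1859, 865 and 915 counts in LPS replicates 1 to 3, or 156, 121, 102 and 118 CPM in the control mice and 85.7, 55.7 and 57.0 CPM in the LPS mice. All LPS mice were below the control mice, and LPS replicate 1 was the nearest to them. With means of 124 ± 22.8 CPM (SD, n = 4) in control mice and 66.1 ± 16.9 CPM (SD, n = 3) in LPS mice, the log2 fold change was -0.91 (SE 0.19, edgeR adjusted p = 0.00423), and -1.14 (edgeR adjusted p = 0.00131) without LPS replicate 1. The hepatocyte markers given above had a summed level, led by Alb, that was lower in the same mice, and a median log2 fold change near 0, and their part in this result was not tested. Kdr (ENSMUSG00000062960), the main signalling receptor for this growth factor, had 239, 509, 275 and 582 counts in control replicates 1 to 4 and 348, 178 and 133 counts in LPS replicates 1 to 3, or 16.9, 32.1, 16.8 and 28.2 CPM in the control mice and 16.0, 11.5 and 8.28 CPM in the LPS mice. The groups did not overlap, but LPS replicate 1 at 16.0 CPM lay just under control replicates 1 and 3. The mean was 23.5 ± 7.84 CPM (SD, n = 4) in control mice and 11.9 ± 3.90 CPM (SD, n = 3) in LPS mice, and the log2 fold change was -0.97 (SE 0.28, edgeR adjusted p = 0.0209). The call of Kdr was lost without control replicate 2 (-0.80, edgeR adjusted p = 0.0693), without control replicate 4 (-0.88, 0.0542), without LPS replicate 2 (-0.94, 0.0752) and without LPS replicate 3 (-0.77, 0.103). With any of these left out, 1 pan-endothelial gene fell instead of 2. With LPS replicates 2 and 3 summed, the adjusted p of Kdr was 0.0826. Without LPS replicate 1 the value was -1.25 (edgeR adjusted p = 0.0111).

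The other receptors and junction proteins of endothelium did not pass. Eng (ENSMUSG00000026814), a co-receptor for ligands of the TGF-beta and BMP family, had 432, 432, 329 and 482 counts in control replicates 1 to 4 and 474, 307 and 228 counts in LPS replicates 1 to 3, or 30.6, 27.3, 20.1 and 23.3 CPM in the control mice and 21.8, 19.8 and 14.2 CPM in the LPS mice. LPS replicate 1 lay within the control range, LPS replicate 2 just below it and LPS replicate 3 further below, and the log2 fold change was -0.44 (SE 0.19, edgeR adjusted p = 0.115), or -0.28 without LPS replicate 3. Egfl7 (ENSMUSG00000026921), a secreted protein of endothelium, had 245, 340, 151 and 192 counts in control replicates 1 to 4 and 401, 209 and 204 counts in LPS replicates 1 to 3, or 17.3, 21.5, 9.23 and 9.29 CPM in the control mice and 18.5, 13.5 and 12.7 CPM in the LPS mice. All LPS mice lay within the range of the control mice, and the log2 fold change was 0.062 (SE 0.29, edgeR adjusted p = 0.905). The fenestral diaphragm gene Plvap was close in the groups, at 11.7 to 16.5 CPM in control mice and 11.3 to 16.8 CPM in LPS mice, with a log2 fold change of -0.11 (edgeR adjusted p = 0.742). Cdh5, the cadherin of endothelial junctions, had 8.55 to 13.6 CPM in control mice and 8.28 to 25.9 CPM in LPS mice, and its log2 fold change of 0.37 became -0.35 without LPS replicate 1. The VEGF receptors Flt1 and Flt4 had log2 fold changes of 0.22 and 0.23, and the angiopoietin receptors Tek and Tie1 of -0.19 and -0.13. Without LPS replicate 1 the values of Flt1, Flt4, Tek and Tie1 were 0.0031, -0.056, -0.66 and -0.30, and with each mouse left out that of Flt1 reached 0.47 without LPS replicate 2. Angpt2, a ligand of Tek that endothelium stores for release, had 0.379 to 1.45 CPM in control mice and 0.436 to 3.41 CPM in LPS mice. LPS replicate 1 alone was above the control mice, and the log2 fold change of 0.86 became -0.56 without it. The nitric oxide synthase gene Nos3 had a log2 fold change of 0.50, which became -0.27 without LPS replicate 1. For the junction gene Esam the log2 fold change was 0.83 (edgeR adjusted p = 0.0702), and without control replicate 1 it was 1.14 (edgeR adjusted p = 0.00958), within a range of 0.00958 to 0.227 for the adjusted p with each mouse left out. Esam also passed with DESeq2 (adjusted p = 0.0487) and, in edgeR, with no filter on low counts (adjusted p = 0.00551). The transcription factor gene Erg, the sialomucin genes Emcn and Cd34, the clotting factor gene Vwf and the guidance receptor gene Robo4 had log2 fold changes of 0.059, 0.036, 0.63, -0.15 and -0.22. With total counts in place of TMM scaling, the values of Egfl7, Erg and Emcn were below 0. That of Cd34 was 1.01 without control replicate 2 and 0.34 without control replicate 4. Aplnr, the apelin receptor, was not tested and had 13, 1, 0 and 8 counts in control replicates 1 to 4 and 0, 0 and 0 counts in LPS replicates 1 to 3. Taking 3 counts in each LPS mouse as the limit of detection, its mean CPM was at least 1.98-fold lower, but control replicates 2 and 3 were themselves under that limit. The bound rests on control replicate 1, which had 0.920 CPM. With no filter on low counts Aplnr was tested and passed (edgeR adjusted p = 0.0421), and with DESeq2 it was tested and did not (adjusted p = 0.0531).

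Among 20 other endothelial genes tested outside the module, 2 rose, 3 fell and 15 did not pass. Of all genes tested 26.3% were called, and the 20 genes had a median log2 fold change of -0.33. Ptprb, the phosphatase that restrains Tek, had 32.4, 36.8, 29.5 and 31.8 CPM in the control mice and 11.1, 6.76 and 7.59 CPM in the LPS mice, a log2 fold change of -1.93 (SE 0.19, edgeR adjusted p = 1.15e-05). The mannose receptor Mrc1, which sinusoidal endothelium and macrophages use for uptake, had 28.1, 47.6, 29.0 and 35.1 CPM in the control mice and 15.4, 13.9 and 10.2 CPM in the LPS mice, a log2 fold change of -1.41 (SE 0.22, edgeR adjusted p = 4.09e-04). Every LPS mouse was below every control mouse for both genes. The clotting factor gene F8, which endothelium expresses, went from 6.80 to 3.28 CPM in the mean, a log2 fold change of -1.05 (edgeR adjusted p = 0.0109). Its call was lost without LPS replicate 2 or 3, with edgeR adjusted p = 0.0504 and 0.0519. Adam23 and Gata6 rose, with log2 fold changes of 1.06 (edgeR adjusted p = 0.00593) and 1.19 (edgeR adjusted p = 0.00711). Without LPS replicate 1 the median was -0.65, and 5 genes of this list fell, Sox17 and the junctional claudin gene Cldn5 being the further ones. Among 17 angiogenic ligands, receptors and Notch genes tested, 1 rose, 2 fell and 14 did not pass. The share called over all genes tested was 26.3%, and these 17 genes had a median log2 fold change of -0.068. The median was -0.50 with 4 genes above 0 without LPS replicate 1, between -0.20 and -0.16 without control replicate 1, 3 or 4, and 0.047 with LPS replicates 2 and 3 summed. Nrp1, a co-receptor of Kdr, had 78.0, 87.0, 87.3 and 66.8 CPM in the control mice and 36.1, 34.6 and 36.7 CPM in the LPS mice, a log2 fold change of -1.16 (SE 0.14, edgeR adjusted p = 7.81e-05), with no overlap between groups. The Notch ligand Jag1 went from 7.30 to 3.55 CPM, a log2 fold change of -1.04 (edgeR adjusted p = 0.0239). Its adjusted p was 0.0586, 0.0525, 0.0938 and 0.0751 without control replicate 3, control replicate 4, LPS replicate 2 and LPS replicate 3. The oxygen-responsive transcription factor gene Hif1a rose from 28.0 to 50.3 CPM, a log2 fold change of 0.84 (edgeR adjusted p = 0.0124), and its adjusted p was 0.0504 without LPS replicate 3. Without control replicate 4, LPS replicate 2 or LPS replicate 3, 1 gene of the angiogenic list fell.

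Of the 6 adhesion molecules, 4 were tested, 2 rose, 0 fell and 2 did not pass, with a median log2 fold change of 1.16. The share called over all genes tested was 26.3%. Icam1 (ENSMUSG00000037405) is the ligand of the leukocyte integrins formed by Itgal or Itgam with Itgb2, and many cell types other than endothelium can express it. It had 49, 130, 94 and 105 counts in control replicates 1 to 4 and 712, 370 and 365 counts in LPS replicates 1 to 3, or 3.47, 8.20, 5.74 and 5.08 CPM in the control mice and 32.8, 23.8 and 22.7 CPM in the LPS mice. Each LPS mouse was far above each control mouse, with LPS replicate 1 the highest. The mean was 5.62 ± 1.97 CPM (SD, n = 4) in control mice and 26.5 ± 5.53 CPM (SD, n = 3) in LPS mice, and the log2 fold change was 2.23 (SE 0.25, edgeR adjusted p = 3.29e-05), or 2.05 without LPS replicate 1. Vcam1 (ENSMUSG00000027962), the ligand of the integrin formed by Itga4 and Itgb1, had 133, 108, 123 and 150 counts in control replicates 1 to 4 and 536, 373 and 388 counts in LPS replicates 1 to 3, or 9.41, 6.82, 7.52 and 7.26 CPM in the control mice and 24.7, 24.0 and 24.2 CPM in the LPS mice. Values in the LPS mice lay within 1 CPM of each other and above all control mice. With means of 7.75 ± 1.14 CPM (SD, n = 4) in control mice and 24.3 ± 0.358 CPM (SD, n = 3) in LPS mice, the log2 fold change was 1.65 (SE 0.16, edgeR adjusted p = 1.15e-05).

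The selectins and the other adhesion molecules gave no call. Selp (ENSMUSG00000026580), the selectin that endothelium and platelets store in granules, had 31, 53, 32 and 79 counts in control replicates 1 to 4 and 112, 76 and 55 counts in LPS replicates 1 to 3, or 2.19, 3.34, 1.96 and 3.82 CPM in the control mice and 5.16, 4.90 and 3.42 CPM in the LPS mice. LPS replicates 1 and 2 were above all control mice and LPS replicate 3 was within their range. The mean was 2.83 ± 0.898 CPM (SD, n = 4) in control mice and 4.49 ± 0.936 CPM (SD, n = 3) in LPS mice, and the log2 fold change was 0.66 (SE 0.33, edgeR adjusted p = 0.169). Sele (ENSMUSG00000026582), the selectin that activated endothelium makes anew, had 4, 8, 3 and 0 counts in control replicates 1 to 4 and 34, 11 and 2 counts in LPS replicates 1 to 3, or 0.283, 0.505, 0.183 and 0 CPM in the control mice and 1.57, 0.709 and 0.125 CPM in the LPS mice. LPS replicate 1 held most of its counts, LPS replicate 2 was also above all control mice, LPS replicate 3 was below control replicates 1 to 3, and the gene was not tested. Icam2 (ENSMUSG00000001029), a ligand of the same integrins as Icam1 that resting endothelium carries, had 36, 35, 27 and 36 counts in control replicates 1 to 4 and 115, 35 and 21 counts in LPS replicates 1 to 3, or 2.55, 2.21, 1.65 and 1.74 CPM in the control mice and 5.30, 2.25 and 1.31 CPM in the LPS mice. LPS replicate 1 alone was above the control mice, and the log2 fold change of 0.55 (SE 0.46, edgeR adjusted p = 0.421) became -0.19 without it. Madcam1 (ENSMUSG00000020310), the ligand of the gut-homing integrin, had 0, 0, 0 and 0 counts in control replicates 1 to 4 and 0, 0 and 1 counts in LPS replicates 1 to 3, so it was not detectable at this depth in any control mouse.

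Promoter windows from RefSeq, on build GRCm38.p6, were searched for letters recognised by transcription factor families that act in inflamed or endothelial cells. Each window ran from 250 bases before to 50 after a gene's start, and 23 of the 44 members matched with 28 windows, including 4 of the 6 adhesion molecules. The motif GGANNTTCC, of the NF-kappa B type, was found on either strand in 4.26% of the 32851 windows of all genes, and the related GGGANTTCC in 1.68%, while no stretch of bases can match both. GGANNTTCC was in 3 of the 28 member windows, all 3 of adhesion molecules. The Icam1 window held GGAAATTCC, which matches on both strands and starts 153 bases before the gene's start, the Sele window held GGATATTCC on its plus strand, starting 145 bases before it, and the Madcam1 window held GGAAAGTCC on its minus strand, 70 bases before it. Selp had no match of this type in its window. The AP-1 type motif TGANTCA, found in 7.81% of all windows, was in the windows of Sele (TGACTCA, 73 bases before the start) and Selp (TGATTCA, 139 bases before the start). GGGANTTCC was found once, as GGGACTTCC just after the start of Ehd3, which fell. The GATA type motif AGATAA, found in 11.2% of all windows, was in 1 window each of Erg, Tek and Vegfa. No window of Clec4g, Stab1, Stab2, Fcgr2b or Wnt2 held any of the motifs. Sequences of the 250 bases before the start are shown for Icam1, which rose, and for the endothelial selectins, 5′ to 3′ on the plus strand, with the NF-kappa B type matches in capitals. They lie at chr9:21015690-21015939 for Icam1, chr1:164047984-164048233 for Sele and chr1:164115014-164115263 for Selp. A match describes the letters of a window and is neither a bound site nor a cause of a change.
Icam1: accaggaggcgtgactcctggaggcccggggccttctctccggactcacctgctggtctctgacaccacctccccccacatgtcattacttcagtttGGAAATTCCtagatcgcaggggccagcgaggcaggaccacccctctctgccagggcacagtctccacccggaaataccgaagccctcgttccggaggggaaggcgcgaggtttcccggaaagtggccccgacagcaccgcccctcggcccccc
Sele: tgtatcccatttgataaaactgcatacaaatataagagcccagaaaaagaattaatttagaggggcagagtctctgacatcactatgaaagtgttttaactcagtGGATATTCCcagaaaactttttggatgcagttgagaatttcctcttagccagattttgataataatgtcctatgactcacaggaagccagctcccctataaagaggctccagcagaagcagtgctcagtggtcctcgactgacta
Selp: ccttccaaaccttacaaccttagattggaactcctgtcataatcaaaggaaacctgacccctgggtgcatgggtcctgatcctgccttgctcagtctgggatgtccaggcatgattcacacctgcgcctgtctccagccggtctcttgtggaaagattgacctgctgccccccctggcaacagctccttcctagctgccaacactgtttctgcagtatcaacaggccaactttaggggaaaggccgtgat

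Of 17 leukocyte partners of these adhesion molecules tested, 12 rose, 0 fell and 5 did not pass, while 13.3% of all genes tested rose. The partners had a median log2 fold change of 1.60, and without LPS replicate 1, 10 rose and the median was 1.06. Some partners had few counts in control mice, and asking for at least 10 counts in every sample left 11, of which 9 rose. Itgam, the integrin chain of neutrophils and macrophages that binds Icam1, had 1.56, 0, 0.306 and 0.242 CPM in the control mice and 53.2, 35.4 and 36.1 CPM in the LPS mice, a log2 fold change of 6.39 (SE 0.53, edgeR adjusted p = 2.28e-06). Control replicates 2 to 4 were at or near the floor. Itgam thus entered the test mainly through the LPS mice, and the size of its change is uncertain. Itgb2, its partner chain, had 4.39, 4.17, 2.63 and 2.18 CPM in the control mice and 41.0, 14.9 and 18.1 CPM in the LPS mice, a log2 fold change of 2.90 (SE 0.36, edgeR adjusted p = 6.69e-05). All LPS mice were above all control mice for both genes. Itga4, which pairs with Itgb1 to bind Vcam1, rose from 3.48 to 13.8 CPM, and Selplg, the ligand of the selectins, from 1.20 to 3.68 CPM. For Selplg the adjusted p was 0.0788 without LPS replicate 1, 0.0970 without LPS replicate 3, 0.0782 without control replicate 2 and 0.0504 without control replicate 4. The neutrophil markers moved with these genes. Of 13, 9 were tested and all 9 rose, the summed level of the 13 was 5.24, 4.61, 2.32 and 3.53 CPM in control replicates 1 to 4 and 225, 166 and 163 CPM in LPS replicates 1 to 3, and S100a9 was the most abundant. Asking for at least 10 counts in every sample left 2 of the neutrophil markers, and 2 rose. Markers near the floor in control mice could enter the test through the LPS mice alone, so their number that rose follows in part from the filter. The defining markers Ly6g, Ngp and Mpo had 0 counts in the control mice, and Ly6g was near 0 in the LPS mice too, at 0.323, 0 and 0.0623 CPM. The 13 lymphocyte and NK cell markers summed to 9.84, 9.85, 8.86 and 6.44 CPM in control replicates 1 to 4 and 4.15, 2.51 and 4.05 CPM in LPS replicates 1 to 3, with Cd4 the most abundant, and of 6 tested 0 rose and 3 fell. When at least 10 counts were asked for in every sample, 0 of these markers were tested. The part of these cells in the levels of the partner genes, of Icam1 and of Vcam1 was not tested.

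Of 11 molecules tested through which leukocytes cross endothelial junctions, Jam2 and F11r rose, 0 fell and 9 did not pass, while 26.3% of all genes tested were called. Cldn5 fell as well without LPS replicate 1 (-1.80, edgeR adjusted p = 0.0410). Jam2 had 5.52, 6.44, 5.56 and 4.35 CPM in the control mice and 19.7, 15.5 and 13.3 CPM in the LPS mice, a log2 fold change of 1.57 (SE 0.21, edgeR adjusted p = 1.35e-04). F11r, which hepatocytes and other epithelia also carry, had 51.4, 44.9, 58.3 and 57.6 CPM in the control mice and 69.5, 91.5 and 97.5 CPM in the LPS mice, a log2 fold change of 0.70 (SE 0.16, edgeR adjusted p = 0.00572). Of 13 inducible endothelial surface and haemostasis genes tested, 9 rose, 1 fell and 3 did not pass, with a median log2 fold change of 1.70, and without LPS replicate 1, 6 of 12 rose and 0 fell. Asking for at least 10 counts in every sample left 8 of these genes, of which 6 rose and 1 fell. Mmp14, a membrane-bound matrix protease, had 13.9, 13.2, 14.6 and 16.3 CPM in the control mice and 58.7, 56.6 and 50.8 CPM in the LPS mice, a log2 fold change of 1.93 (SE 0.14, edgeR adjusted p = 6.81e-07). The anticoagulant receptor gene Thbd had 2.05, 2.34, 1.89 and 1.98 CPM in the control mice and 8.25, 6.70 and 8.22 CPM in the LPS mice, with a mean 3.74 times as high in LPS mice (edgeR adjusted p = 1.42e-04). Every LPS mouse was above every control mouse for both Mmp14 and Thbd. F3, the initiator of clotting, fell from 4.73 to 1.84 CPM, a log2 fold change of -1.36 (edgeR adjusted p = 0.0210). Its adjusted p was 0.0615, 0.0730 and 0.0649 without control replicate 1, LPS replicate 1 and LPS replicate 3.

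Levels of different members were compared per length, as CPM per kilobase of the union of exons in GENCODE M21. In control mice Vegfa was the most abundant member at 29.0 CPM per kb, with a range of 23.8 to 36.4 over the mice, followed by Clec4g at 10.3 (8.97 to 12.7), Plvap at 7.24 (5.90 to 8.30) and Eng at 6.25 (4.97 to 7.55). Clec4g stood above Plvap in every control mouse, while the ranges of Plvap and Eng overlapped. In LPS mice Ly6a led at 41.3 CPM per kb (40.5 to 42.6), followed by Vegfa at 15.4. Plvap at 6.71 (5.67 to 8.44), Lyve1 at 6.53 (5.01 to 9.32) and Icam1 at 6.07 (5.21 to 7.53) came next with overlapping ranges. Clec4g moved from place 2 of the 44 members to place 34, at 0.471 CPM per kb, and Icam1 from place 24 to place 5. The least abundant members were Madcam1, Wnt9b, Sele and Aplnr in control mice.

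**Figure D3:**
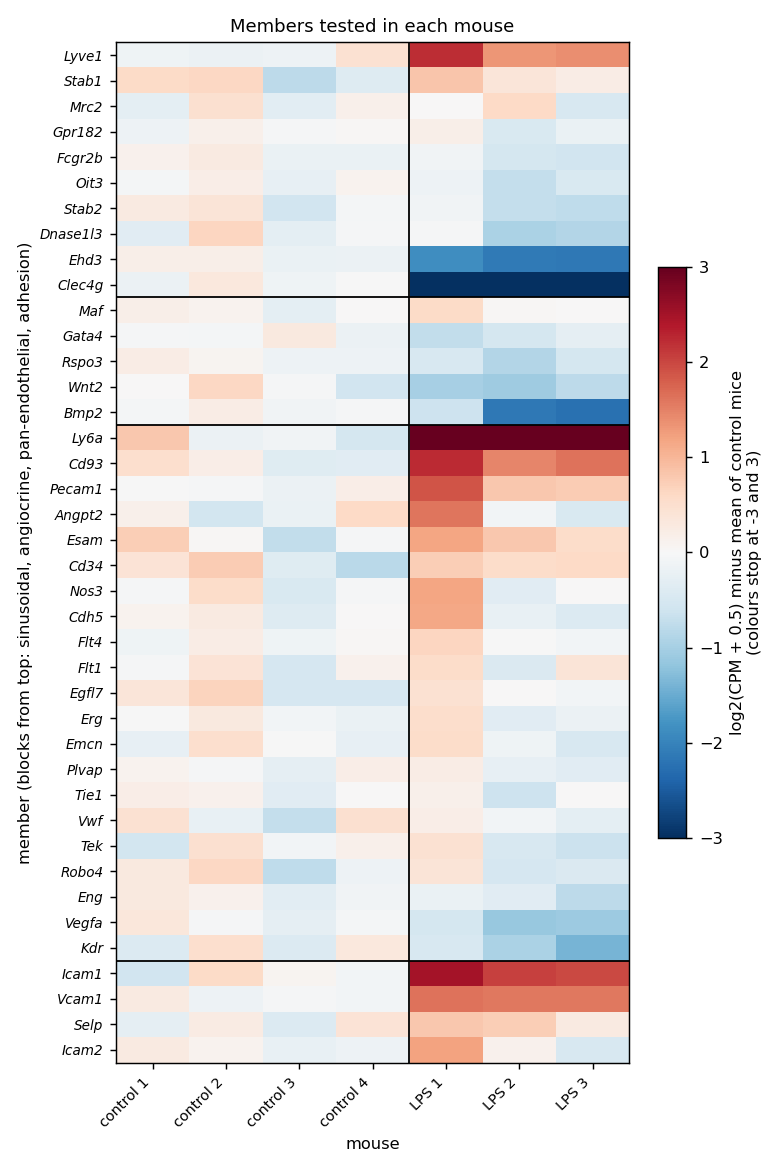
Log2(CPM + 0.5) of the 40 members tested in each of the 7 mice, minus the mean of the control mice, with members grouped by role from top to bottom and colours that stop at -3 and 3. Clec4g and Ehd3 are low and Ly6a, Icam1 and Vcam1 high in all 3 LPS mice, while for genes such as Cdh5, Nos3, Angpt2 and Icam2 LPS replicate 1 alone is high.

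Markers of the remaining cell types were measured in the same libraries, in which 13.3% of all genes tested rose and 13% fell. The 15 stellate cell and fibroblast markers, with Dcn the most abundant, summed to 667, 483, 294 and 474 CPM in control replicates 1 to 4 and 449, 352 and 338 CPM in LPS replicates 1 to 3, and 1 rose, 5 fell and 9 did not pass. The number that fell was 3 without control replicate 1, 2 or 4 or LPS replicate 3 and 2 without LPS replicate 2, and 2 rose without control replicate 1. The 6 cholangiocyte markers, with Spp1 the most abundant, summed to 264, 109, 72.2 and 117 CPM in control replicates 1 to 4 and 138, 165 and 159 CPM in LPS replicates 1 to 3, and 1 rose, Sox9, and 0 fell, with 2 rising without control replicate 1. The 5 erythroid markers, with Hbb-bs the most abundant, summed to 307, 183, 232 and 179 CPM in control replicates 1 to 4 and 136, 53.9 and 53.8 CPM in LPS replicates 1 to 3, and 0 rose and 4 fell. Of these, 2 fell without control replicate 1, 2 or 3 and 1 fell without LPS replicate 2 or 3. All of these markers had counts in at least 1 mouse. Mitochondrial genes took 23.7%, 14.6%, 7.48% and 8.96% of the counts in control replicates 1 to 4 and 6.45%, 3.83% and 3.94% in LPS replicates 1 to 3. The part of these differences in the results of the module was not tested beyond the fit without mitochondrial genes, in which the same numbers of members rose and fell.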

How the data were processed

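Poly(A) RNA of whole liver was sequenced as strand-specific libraries. The table that the authors deposited holds raw counts of reads per gene without normalization. Their notes name Cutadapt 1.9.1, HISAT2 2.2.1, HTSeq 0.6.1 and build GRCm39. The annotation release, the strand setting of counting and how multiply mapped reads were handled are not given in the sources used here, so overlapping genes and close paralogs may share reads.

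Genes were filtered with filterByExpr, scaled by TMM and tested in R 4.3.3 with edgeR 4.0.16 (glmQLFit, glmQLFTest) with condition as the only term, and the SE was derived from the F statistic. Replicates are the samples the labels name. Tried in turn were DESeq2 1.42.0, RLE factors, total counts, other filters on low counts, no mitochondrial genes, stricter calls, a replicate block, each mouse left out, and LPS replicates 2 and 3 summed. Scripts were tested on simulated data. Per-mouse values are given for all adhesion molecules and, in each role, for up to 3 members that rose and 3 that fell with the smallest p and the 2 most abundant that did not pass. Up to 3 called genes per direction with the smallest p are named from each pathway list, apart from genes not used here, and further genes were named after their values were seen. The members, lists and alternatives were chosen with earlier results of these data known.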

Additional observations from a re-analysis of the deposited data

Results flagged for a closer look

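Lyve1 in control replicate 4 had 7.74 CPM, while the other control mice lay between 4.80 and 5.02 CPM. Its gap to the nearest mouse was 0.923 of the range of the group, above the 95% critical value of Dixon's test for 4 samples. This was 1 of the 44 members examined, and chance gives such a gap in about 1 in 20 groups. Without control replicate 4 the log2 fold change of Lyve1 was 1.96 (edgeR adjusted p = 3.10e-04), and in all fits it rose.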

How the results depend on the processing

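Of the 11 called members, 0 changed direction in the alternatives that tested them and 1, Kdr, lost its call at an adjusted p below 0.05. Clec4g was not tested with at least 10 counts in every sample, since LPS replicate 2 had 5. Of the 29 others, 14 changed direction and 5 (Stab2, Dnase1l3, Wnt2, Gata4 and Esam) passed in at least 1 alternative. Among all genes, 1068 rose and 1000 fell when an absolute log2 fold change above 1 was also asked for, and 1091 and 993 at an adjusted p below 0.01. With each mouse left out, 1290 to 1906 rose and 1146 to 1868 fell. The number of members that fell was 8 with no filter on low counts, Aplnr among them, and 3 with the fold change threshold. Sinusoidal genes that fell numbered 4 with no filter, 1 with at least 10 counts in every sample, where fewer genes were tested, and 2 to 4 with each mouse left out. Angiocrine genes that fell numbered 2 with DESeq2 (Wnt2 added), 3 with total counts (Wnt2 and Gata4 added) and 1 to 2 with each mouse left out. Pan-endothelial genes that fell numbered 1 with LPS replicates 2 and 3 summed, 0 with the fold change threshold, 1 at an adjusted p below 0.01 and 1 to 2 with each mouse left out. Total counts without scaling factors moved the median log2 fold change of all genes by -0.12 and the share of calls that were higher from 50.7% to 39.6%. Relative to TMM they turned Mrc2 to -0.0392, Erg to -0.0261, Egfl7 to -0.0247 and Emcn to -0.0477. The groups share the replicate numbers 1 to 3, and the deviations of same-numbered mice correlated at 0.188, -0.0347 and 0.0989. Deviations were taken from the mean of replicates 1 to 3 in each group, which ties these correlations to each other. They therefore cannot settle whether same-numbered mice share more than a number. Not every mouse correlated best with its own number. With the replicate block 1647 genes rose and 1587 fell, and Erg was -0.0700, Egfl7 -0.0457, Emcn -0.13 and Vwf 0.12, the median of the members was -0.047, and Esam passed (adjusted p = 0.0331). With each mouse left out, log2 fold changes that crossed 0 ranged from -0.41 to 0.42 for Mrc2, -0.35 to 0.65 for Cdh5, -0.0559 to 0.37 for Flt4, -0.66 to 0.0191 for Tek, -0.30 to 0.0817 for Tie1, -0.27 to 0.82 for Nos3, -0.30 to 0.24 for Erg, -0.12 to 0.31 for Egfl7, -0.41 to 0.29 for Emcn, -0.38 to 0.0439 for Vwf, -0.60 to 0.0206 for Robo4, -0.56 to 1.29 for Angpt2, -0.30 to 0.0042 for Plvap and -0.19 to 0.90 for Icam2. Apart from fewer genes or mice, the cause of these shifts was not tested. Depth limited Sele, Madcam1, Wnt9b and Aplnr, whose counts were below the filter. All 4 were tested with no filter, where Aplnr passed.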

Other observations

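The endothelial surface is coated by syndecans, which membrane proteases can release. These genes were singled out after their values were seen. Sdc1 had 79.8, 99.8, 116 and 121 CPM in the control mice and 204, 401 and 414 CPM in the LPS mice, a log2 fold change of 1.70 (edgeR adjusted p = 1.63e-04), and LPS replicate 1 was the lowest of the LPS mice, unlike for most members of the module. Sdc4 had 211, 299, 436 and 377 CPM in the control mice and 497, 559 and 551 CPM in the LPS mice, a log2 fold change of 0.69 (edgeR adjusted p = 0.0293), and its adjusted p was 0.0813, 0.0988 and 0.0956 without control replicate 2, LPS replicate 2 and LPS replicate 3. Of the proteases, Adam10 rose from 31.6 to 48.9 CPM in the mean, and Adam17 rose too, with log2 fold changes of 0.63 (edgeR adjusted p = 0.00471) and 0.74 (edgeR adjusted p = 0.0120). For Adam17 the adjusted p was 0.0542 without LPS replicate 1 and 0.0528 without LPS replicate 3. Hepatocytes express syndecans abundantly, and the cells of origin were not tested.

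The comparison holds 3 LPS mice at a single time, 1 of which stands apart and 2 of which are unusually close. Values are RNA of whole liver, so cell number, cell type and expression per cell cannot be told apart, and many members are also expressed by leukocytes, platelets or hepatocytes. Protein, surface display and leukocyte binding were not measured. Control libraries held more mitochondrial RNA than LPS libraries, and LPS replicate 1 held the highest macrophage marker level. The list of members was chosen with earlier results known, so its counts describe the list only.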
